A study of Mus musculus with 39 samples.

Results

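The genes that cut, process or protect the extracellular matrix were read across all arrays of mouse subcutaneous adipose tissue. The members were every gene name on the array that starts with Mmp, Timp or Adamts and a number, ADAMTS-like genes included, and each name was represented by its brightest probe. That gave 50 of the 29411 gene names: 22 matrix metalloproteinases (MMPs), 4 tissue inhibitors of metalloproteinases (TIMPs), 19 ADAMTS proteases and 5 ADAMTS-like proteins. Of these, 46 matched a RefSeq symbol through the accession of the probe, and 21 had several probes. A level is the log2 processed signal of the probe minus the log2 75th percentile of the signals on that array, so 0 is the 75th percentile. Levels of different probes cannot be set against each other, since each probe has its own response.

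MMPs are zinc-dependent endopeptidases, mostly made as inactive precursors, and they cut collagens, gelatin, proteoglycans and elastin. TIMPs bind the active site of these enzymes and block it. ADAMTS proteases are secreted relatives that cut proteoglycans such as versican and aggrecan or trim procollagen, while ADAMTS-like proteins carry the ancillary domains without the protease. In adipose tissue this system reworks the matrix around fat cells as they enlarge, and its members come from fibroblasts, endothelial cells, adipocytes, macrophages and neutrophils.

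The arrays measured total RNA of subcutaneous adipose tissue from C57BL/6J mice that were randomised to 5 diets at weaning, at the age of 3 to 4 weeks, with 30 animals per diet. LFC was a low-fat control diet with 10% of calories from fat (10 arrays), and HFC was a high-fat diet with 60% of calories from fat and added sucrose (11 arrays). HF5, HF20 and HF75 were that high-fat diet with KAL-1, an ethno-botanical formulation, at 5, 20 or 75 µg (6 arrays each). LFC and HFC shared 10 time points. Here Day 6, Day 10, Day 14 and Week 0 are called early, and the 6 points from Week 3 to Week 18, every 3 weeks, late. Per the study's methods, weeks were counted from Day 14, so Week 0 is the same time on the diet as Day 14 in a repeat of the experiment; the pair was kept as separate time points here. HFC also had an array at Day 1. The KAL-1 diets were measured at the 6 late time points. Every diet had 1 array per time point. The labels do not say whether an array held RNA of a single mouse or of a pool, and the design text of the series speaks of 3 biological replicates without tying them to arrays, so n counts arrays and p-values measure the spread between arrays. In bulk tissue, fewer cells of a type and less RNA per cell cannot be told apart.

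The 75th percentile of the signal ran from 107.9 to 1285 scanner units over the 39 arrays, and 49.3% to 87.8% of the spots were well above background. The mean level of 8 adipocyte markers was at least 0.91 on every array. On 6 arrays (HFC Day 1, LFC Day 6, HFC Day 6, HFC Day 10, HF75 Week 3 and LFC Week 12) a list of immediate early genes had a mean level of -0.79 to -0.65, against 3.92 to 5.57 on the other 33. A list of 8 skeletal muscle genes was at 3.12 to 7.56 on 6 arrays (HFC Day 1, LFC Day 6, HFC Day 6, HFC Day 10, HF75 Week 3 and HF5 Week 12) and at most at 2.11 on the others. In the series table the Week 12 columns of HF5 and HF20 matched each other's array (r = 0.99994 and 0.999995 over probes) and not their own (r = 0.696 for each), so those labels go against each other, and values that use them are given both ways where a call or a size turns on it.

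Of the 50 members, 17 were well above background on all 39 arrays. They include the matrix genes Mmp2, Mmp3, Mmp14, Timp1, Timp2, Timp3, Timp4, Adamts1, Adamts2, Adamts4, Adamts5, Adamts9 and Adamts15. In contrast, Mmp1a, Mmp20, Mmp21, Adamts3 and Adamts13 were well above background on 3, 1, 1, 3 and 3 arrays and were left out of the statistics, which covered 45 members. Mmp20 is the enamel protease of developing teeth and Adamts13 the von Willebrand factor protease of liver stellate cells. Timp2 was saturated on 8 arrays and Timp3 on 4, so that their highest levels are bounds.

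The SD over the arrays had a median of 1.102 for the 45 members and of 0.865 for all genes well above background on at least 6 arrays, and 5 of the 45 members lay under the latter value. Mmp13, a collagenase, had the largest SD (3.00), followed by the stromelysin Mmp3 (2.52), the neutrophil collagenase Mmp8 (2.24) and the macrophage elastase Mmp12 (2.17). At the other end, Adamts14, a procollagen-processing protease, had an SD of 0.764.

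**Figure D1:**
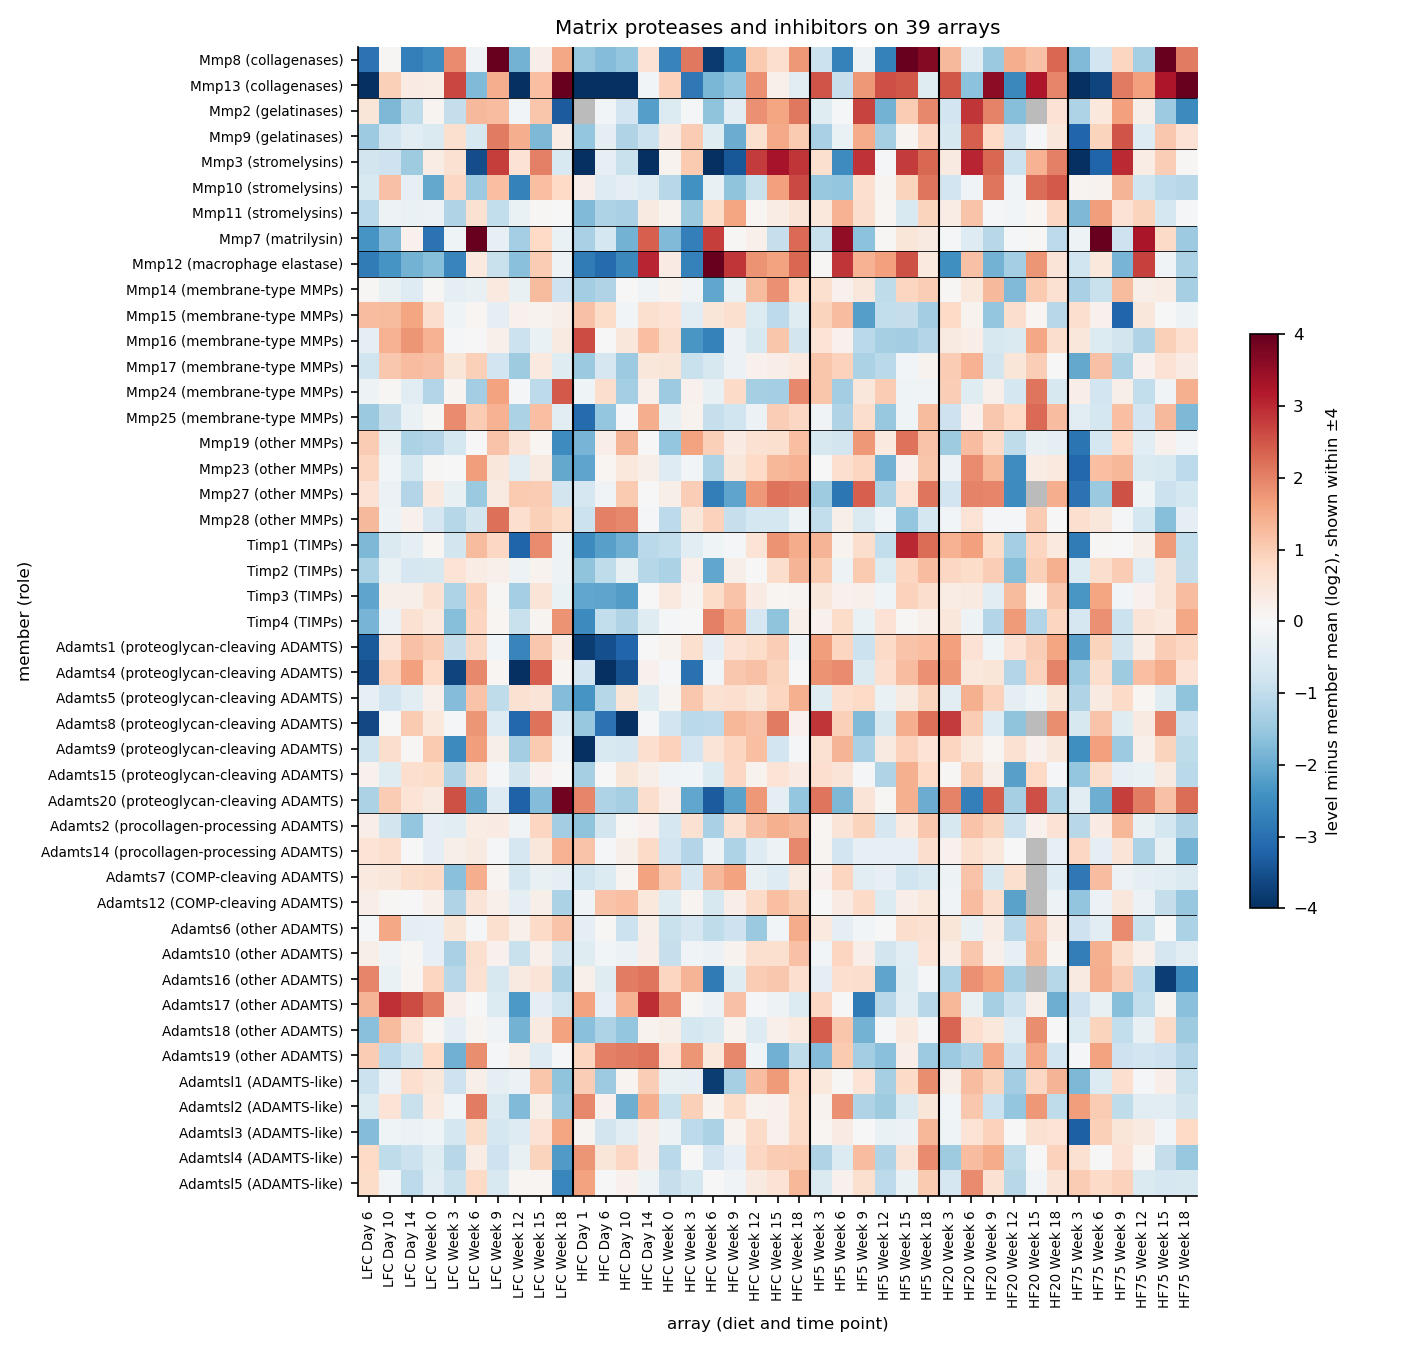
Level of each member in the statistics on each array, shown as the difference from the member's mean over arrays on the log2 scale (colour, limited to -4 and 4; grey marks spots left out for an outlier flag). Rows are genes by family and columns are arrays by diet and time point; Mmp13, Mmp3, Mmp8 and Mmp12 show the strongest contrasts, while Adamts14 stays pale.

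Those 4 variable genes lie in the MMP cluster of chromosome 9, where 9 members follow each other in the order Mmp13, Mmp12, Mmp3, Mmp1a, Mmp10, Mmp8, Mmp27, Mmp20 and Mmp7. RefSeq promoter windows (GRCm38.p6, 250 bases before to 50 after the annotated start) were at hand for 35 of the 50 members and for all 9 cluster genes. The AP-1 site, the element bound by Fos and Jun dimers, was searched as TGAGTCA on both strands, which also reads as TGACTCA. It stood in 6 of the 9 cluster genes and in 0 of the 26 other members with a window, while 5.20% of all 32851 windows and 5.95% of the 27025 genes with a window held it. The stretches around it are shown because these genes contain the most variable members and share the site within the printed stretch. Each stretch runs from position -80 to -21 relative to the start on the plus strand, with the AP-1 letters in capitals.
Mmp13 (chr9:7272434-7272493): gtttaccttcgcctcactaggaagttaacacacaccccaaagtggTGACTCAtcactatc
Mmp12 (chr9:7347294-7347353): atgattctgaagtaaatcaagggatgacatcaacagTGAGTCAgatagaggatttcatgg
Mmp3 (chr9:7445742-7445801): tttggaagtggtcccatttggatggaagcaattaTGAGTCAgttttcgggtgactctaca
Mmp1a (chr9:7464061-7464120): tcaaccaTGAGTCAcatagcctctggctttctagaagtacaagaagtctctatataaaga
Mmp10 (chr9:7502262-7502321): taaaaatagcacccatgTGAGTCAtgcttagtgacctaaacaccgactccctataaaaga
Mmp7 (chr9:7692010-7692069): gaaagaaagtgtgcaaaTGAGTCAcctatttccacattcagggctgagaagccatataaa
The first letter of the site stood at -35 in Mmp13, -44 in Mmp12, -46 in Mmp3, -63 in Mmp10 and Mmp7 and -73 in Mmp1a. Mmp12 and Mmp7 each had a second window without the site. The windows of Mmp8, Adamts1, Timp1 and Timp3 did not hold these letters. A match of letters is a description of the sequence and not a measure of binding.

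The 6 arrays low in immediate early genes also held the lowest values of several members. Mmp13 lay between -6.12 and -4.71 on them and between -4.17 and 5.90 on the other 33 arrays, so the ranges did not overlap. Adamts1, a proteoglycan-cleaving protease, lay at 1.02 to 2.63 against 3.87 to 6.47, again with no overlap. Timp3, the matrix-bound inhibitor, was at 3.08 to 4.05 against 4.17 to 6.98, and Timp1, the soluble inhibitor that growth factors and cytokines induce, was at -1.76 to -0.37 against 0.10 to 4.46. Of the 45 members these 4 lay wholly below on the low arrays and 0 wholly above, while of 22714 genes 1.67% lay below and 2.15% above. On the same 6 arrays Fos ran from -3.53 to -1.79, while Fos was at 2.88 to 5.89 elsewhere.

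Other members overlapped between the 6 arrays and the rest. Adamts4, an aggrecanase, had a median of -1.93 on the 6 arrays and 2.36 on the others, with ranges of -3.12 to 0.81 and -2.10 to 3.96. Adamts9 had medians of 0.61 and 2.20, and Adamts8 of -3.87 and -0.41. Mmp2, Mmp3 and Mmp14 had medians of 2.02, 1.42 and 2.71 on the 6 arrays and of 2.17, 2.84 and 3.62 on the others, with ranges that lay mostly over each other. Cell type markers moved with these arrays. The endothelial list was at 0.58 to 1.36 on the 6 arrays and at 1.22 to 4.09 on the others, the neutrophil list at -4.49 to -3.13 against -4.53 to 1.73, and the lymphocyte list at -4.57 to -2.58 against -4.78 to 2.02; their part was not tested. The 6 arrays come from 3 diets and 5 time points, 5 of them also had high muscle RNA, and the groups were defined by their immediate early genes, so no test is given.

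**Figure D2:**
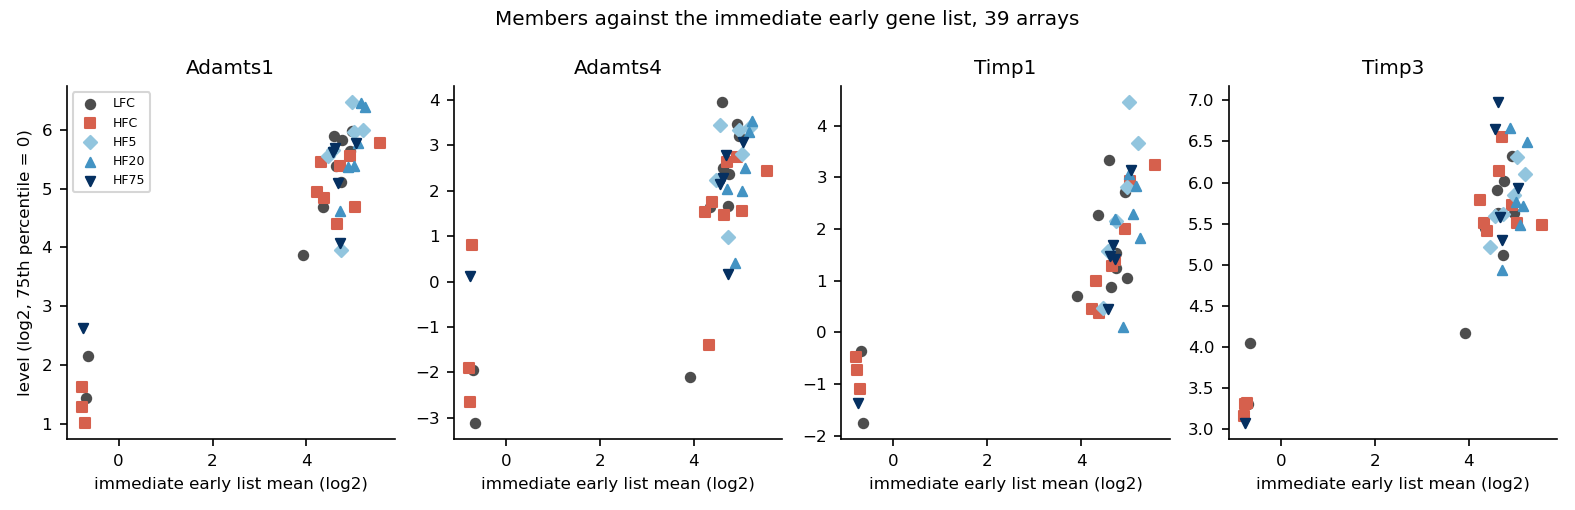
Level of Adamts1, Adamts4, Timp1 and Timp3 (log2, relative to the 75th percentile of the array) against the mean level of the immediate early gene list, with a point for each of the 39 arrays, coloured by diet. The 6 arrays at the left, with a list level of -0.79 to -0.65, lie below all other arrays for Adamts1, Timp1 and Timp3, and among the lower ones for Adamts4.

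The first comparison asked how the high-fat diet moved the system over the 10 time points with both diets. None of the members changed by the test: with limma and Benjamini-Hochberg adjustment, 0 of the 39 members tested and 0 of 19873 genes (0%) had an adjusted p under 0.05. At an unadjusted p under 0.05 there were 2 of 39 members, 1 of them higher in HFC, against 5.86% of all genes. The difference was positive in 22 of 39 members, with a median of 0.10 against -0.04 for all genes.

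Mmp12, which macrophages secrete and which cuts elastin, had the smallest p of the members. On LFC it exceeded background on 3 of 10 arrays, with a lowest level of -7.73, a median of -6.60 and a highest of -3.89. On HFC 7 of 11 arrays showed it above background, with a lowest level of -8.01, a median of -3.30 and a highest of 1.30 at Week 6. The groups overlapped, since the HFC arrays of Day 1, Day 6, Day 10 and Week 3 were as low as the LFC arrays and not well above background.

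By time point, HFC minus LFC in Mmp12 was -0.28 at Day 6 and -0.23 at Day 10. It was 4.92 at Day 14 and 2.04 at Week 0, and then -0.07 at Week 3. From Week 6 it was 5.84, 3.74, 3.47, 0.59 and 2.49 at the successive late time points. At Day 6, Day 10 and Week 3 neither array was well above background, so those values carry no direction. The mean difference was 2.25 (SE 0.62, higher at 7 of 10 time points, limma p = 0.00369, adjusted p = 0.803), and over Week 3 to Week 18 it was 2.68 (SE 0.78, higher at 5 of 6, p = 0.00217, adjusted p = 0.850). Mmp12 entered the fit over the 10 time points with 10 of 20 arrays above background, 7 of them HFC, so that it passed the filter through the diet where it was high, and the fitted sizes rest on LFC levels that were mostly at background. With normexp background correction the mean difference was 0.43 over the 10 time points and 0.50 over Week 3 to Week 18, and the latter was 1.56 when the slide was a random block.

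The macrophage markers stood beside it. All 8 of the list were positive in HFC minus LFC, with a median of 0.56, among them Cd68 (1.05, SE 0.35, p = 0.0109), Itgax (1.23) and Emr1 (0.69), and none of them passed the adjustment in limma. The mean level of the list overlapped between the diets, at -0.18 to 1.33 on LFC and -1.24 to 2.16 on HFC. Its part in the Mmp12 values was not tested.

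**Figure D3:**
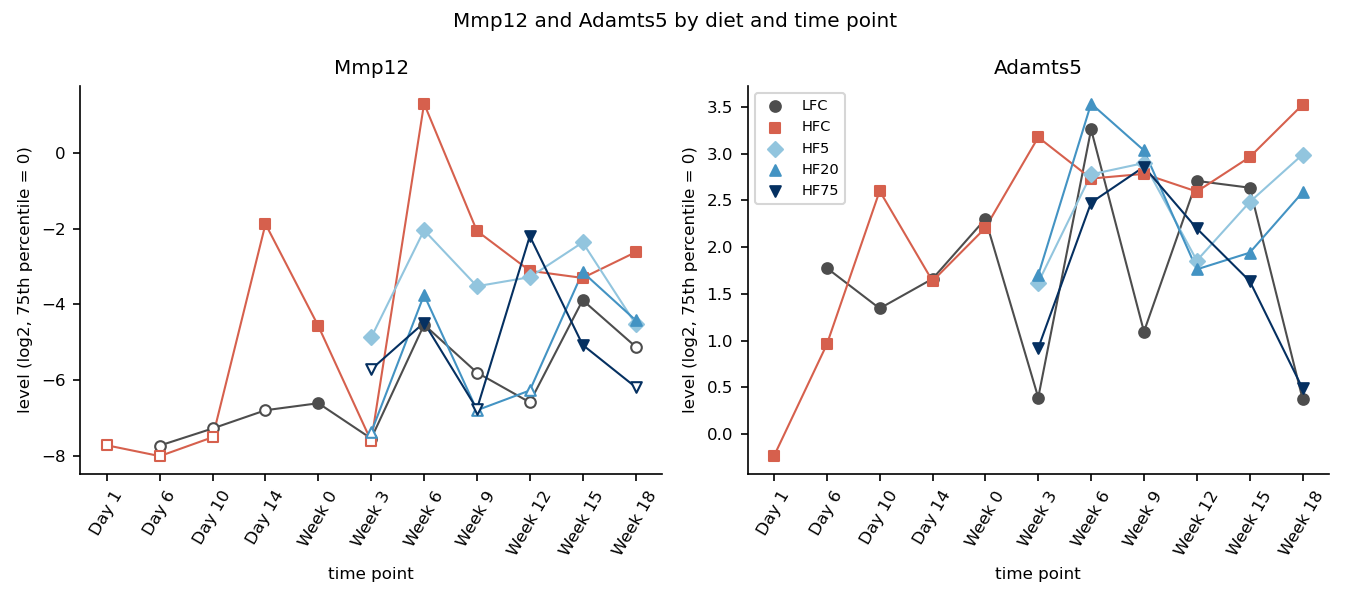
Level of Mmp12 and Adamts5 (log2, relative to the 75th percentile of the array) at each time point, with a line for each diet; open markers are arrays on which the probe was not well above background. For Mmp12 the HFC line stands above the LFC line at Day 14, Week 0 and Week 6 to Week 18 and meets it at Day 6, Day 10 and Week 3.

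Other members moved less in this comparison. Adamts6, a protease for which few substrates are known, was lower in HFC by a log2 difference of -0.82 (SE 0.29, higher at 3 of 10 time points, limma p = 0.0153, adjusted p = 0.803). Adamts12, which cuts cartilage oligomeric matrix protein (COMP), had a difference of 0.63 (SE 0.30, higher at 8 of 10, p = 0.0582), and that difference was -0.27 with normexp. Among the functional groups, both COMP-cleaving members (Adamts7 and Adamts12) and all 3 tested members of the mixed MMP group with Mmp19 were positive, with medians of 0.47 and 0.38. Both tested collagenases, Mmp8 and Mmp13, were negative with a median of -0.90, beside a neutrophil list with 1 of 7 genes positive and a median of -1.01, and 1 of the 4 TIMPs was positive with a median of -0.03.

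The main fibroblast and adipocyte members were close on both diets. Mmp2, gelatinase A, had a mean of 1.84 (SD 1.49, n = 10) on LFC and 2.11 (SD 1.44, n = 10) on HFC. Its activator Mmp14, the membrane-anchored MT1-MMP, had means of 3.37 (SD 0.58, n = 10) and 3.36 (SD 1.15, n = 11). Timp1 was at 1.16 (SD 1.48) and 0.94 (SD 1.42), and Timp4, the inhibitor most typical of fat and heart, at 2.93 (SD 1.14) and 2.67 (SD 1.31), with n = 10 and 11. Each of these differences was smaller than the SD between arrays of the same diet. The HFC means of Mmp14, Timp1 and Timp4 include the Day 1 array, which has no LFC partner. Timp4 had its lowest level of all on that array (0.46). In 4 of the 14 tested members with several probes (Adamts9, Adamtsl3, Mmp9 and Timp1) the probes disagreed in sign.

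Over Week 3 to Week 18 alone, where all 5 diets were fitted together, 0 of 43 members and 0 of 21087 genes (0%) passed for HFC against LFC in limma. At an unadjusted p under 0.05 there were 3 of 43 members, 2 of them higher in HFC, against 5.06% of all genes, and the median was 0.37 against -0.06 for all genes. Besides Mmp12, Adamts5 had the smallest p. Adamts5 is the main aggrecanase and cuts versican. On LFC its lowest level was 0.38, its median 1.87 and its highest 3.26, and on HFC these were 2.60, 2.87 and 3.53. The groups overlapped, and the HFC arrays, all at or above 2.60, were closer to each other (SD 0.34) than the LFC arrays (SD 1.28).

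The mean difference in Adamts5 was 1.22 (SE 0.43, limma p = 0.00995, adjusted p = 0.850). It was positive at 4 of 6 time points, with 2.79 at Week 3 and 3.15 at Week 18, where the LFC arrays were at 0.39 and 0.38. The LFC array of Week 3 had the highest lymphocyte list of all arrays (2.02) and an endothelial list of 1.22. That of Week 18 had the lowest 75th percentile of all arrays (107.9) and the lowest fibroblast and progenitor list on LFC (2.54). The part of these traits was not tested. Adamts6 had a difference of -0.97 (SE 0.41, higher at 1 of 6, p = 0.0273). Of the 7 tested proteoglycan-cleaving ADAMTS genes 6 were positive, with a median of 0.49, and 3 of 4 TIMPs were positive with a median of 0.38. Without Week 12, where the LFC array was low in immediate early genes, 3 of the 7 were positive with a median of -0.097, and 2 of 4 TIMPs with a median of 0.056. The immediate early list itself was positive in 8 of 8 genes here, with a median of 1.19. The muscle, neutrophil and lymphocyte lists were positive in 0 of 8, 0 of 7 and 0 of 8 genes, with medians of -1.79, -1.48 and -1.54, and the part of these lists was not tested.

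**Figure D4:**
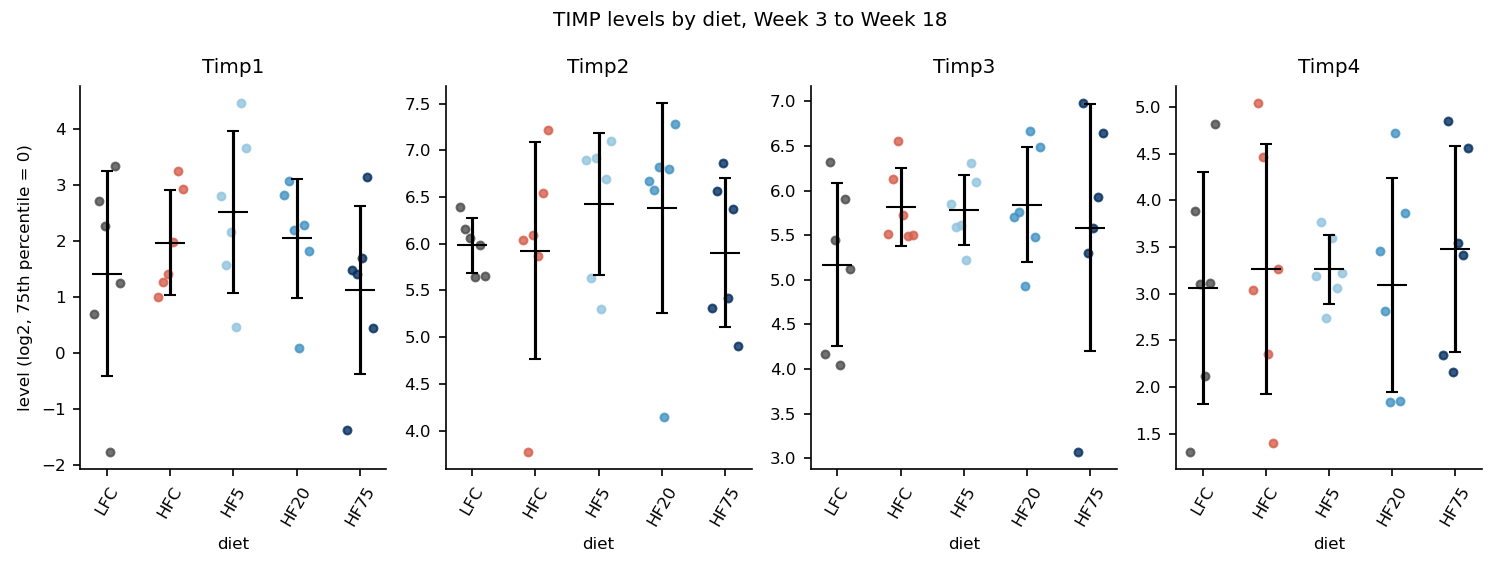
Level of Timp1, Timp2, Timp3 and Timp4 (log2, relative to the 75th percentile of the array) by diet over Week 3 to Week 18; points are the 6 arrays of a diet and bars the mean and SD. The 5 diets overlap for each inhibitor, and the lowest points of Timp1 are the LFC array of Week 12 and the HF75 array of Week 3, both low in immediate early genes.

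The next comparison asked whether the diet difference changed with time on the diet. No member passed for late minus early in HFC minus LFC (0 of 39, against 0% of 19873 genes), and 3 of 39 members had an unadjusted p under 0.05, all positive, against 1.89% of all genes. These were Adamts1 (2.13, SE 0.94), Timp3 (1.38, SE 0.60) and Adamts17 (1.42, SE 0.63), each with an adjusted p of 1.00 in limma. All 4 TIMPs and all 6 tested proteoglycan-cleaving ADAMTS genes were positive, with medians of 1.00 and 1.64. The immediate early list was positive in 8 of 8 genes with a median of 2.93. Without the arrays low in these genes the values were 1.11 for Adamts1, 0.68 for Timp3 and 0.26 for Adamts17. The muscle list was positive in 0 of 8 genes with a median of -2.77, and without the arrays high in muscle RNA the values were 1.66, 0.88 and 0.58. Adamts17 was at 0.28 with normexp and 0.80 with the scan day as a block, and without Day 10 Adamts1 was at 1.37 and Timp3 at 0.81. The endothelial list was positive in 6 of 6 genes (median 0.74), and the neutrophil and lymphocyte lists in 0 of 7 each (medians -1.61 and -1.51). The part of the lists was not tested.

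Late against early time points, LFC and HFC together, gave the only call among the members. Adamts17, mutated in a human syndrome of short stature and lens defects, fell by 2.16 on the log2 scale (SE 0.42, from a mean of -1.53 over 8 arrays to -3.69 over 12, limma adjusted p = 0.0324), and it was 1 of the 39 members tested, where 44 of 19873 genes (0.221%) passed. At the early time points its LFC levels were -2.03, -0.47, -0.80 and -1.33 and its HFC levels -3.71, -1.99, -0.43 and -1.51. At the late time points they were -3.11, -3.42, -3.93, -5.70, -3.80 and -4.20 on LFC and -3.34, -3.63, -2.21, -3.44, -3.59 and -3.93 on HFC. The late arrays lay below the early ones except that the HFC array of Day 6 was among the late values and the HFC array of Week 9 was higher than the rest of the late ones.

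The Adamts17 call did not hold under every setting. The adjusted p was 0.375 with normexp (difference -1.15), 0.0512 without a filter and 0.180 with the scan day as a random block, and it was 0.134, 0.103, 0.0688, 0.0848, 0.117 and 0.0778 without Day 10, Day 14, Week 0, Week 12, Week 15 and Week 18. The muscle list was lower at the late time points in 8 of 8 genes (median -2.74), and without the arrays high in muscle RNA the difference was -2.83 with an adjusted p of 0.0181. Scan days followed the time points, so time on the diet, age and scan day cannot be told apart here. The fit treated the 20 arrays as independent, while the contrast varies only between 4 early and 6 late time points. Its p-values therefore count the LFC and HFC arrays of a time point as separate evidence.

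At an unadjusted p under 0.05 there were 6 of 39 members in late against early, 4 of them higher late, against 13.3% of all genes. Timp2, which both inhibits Mmp2 and helps to activate it with Mmp14, had a difference of 0.93 (SE 0.32), from a mean of 5.03 (n = 8) to 5.95 (n = 12), with a limma adjusted p of 0.215. Timp1 had a difference of 1.36 (SE 0.54), Mmp8 of 2.12 (SE 0.84), Mmp12 of 2.06 (SE 0.90) and Mmp15, another membrane-type MMP, of -0.93 (SE 0.22, adjusted p = 0.0834). All 7 tested neutrophil markers were higher late, with a median of 1.26. The immediate early list had early and late means of 3.41 and 3.65 on LFC and of 1.76 and 4.87 on HFC. For the fibroblast and progenitor list these were 3.24 and 3.56 on LFC and 3.46 and 3.81 on HFC. The part of these lists was not tested. Without the arrays low in immediate early genes the Mmp12 difference was 0.99, and without those high in muscle RNA it was 0.89 and that of Timp1 0.82. With normexp, Mmp8 was at 0.76 and Mmp12 at 0.70.

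The KAL-1 diets were then compared with the high-fat diet alone over Week 3 to Week 18. All these comparisons share the 6 HFC arrays, so their values do not stand independently of each other. For HF5 against HFC, 0 of 43 members and 0% of all genes passed, with 0 of 43 members at an unadjusted p under 0.05 against 1.36% of genes. Its smallest p values belonged to Adamts17 (-0.81, SE 0.45), Adamts6 (0.64, SE 0.41) and Adamts19 (-0.99, SE 0.68), each with a limma adjusted p of 1.00. With normexp these were -0.14, 0.36 and -0.028, and without Week 9 Adamts17 was at -0.17. Leaving out Week 3, Week 9 or Week 15 put Adamts19 at -0.49, -0.53 or -1.63. Adamts19 was above background on 2 of 6 HF5 and 3 of 6 HFC arrays, and in 2 of the 6 pairs on neither, so its size rests on levels mostly at background. For HF20, 0 members and 0% of genes passed, with 1 of 43 members at an unadjusted p under 0.05 (Mmp12) against 4.27%. Next came Mmp19 (-1.08, SE 0.56) and Adamts18 (0.98, SE 0.55), with a limma adjusted p of 0.997 each, at -0.69 and 0.57 without Week 3 and at 0.31 and 1.64 with normexp. With normexp, 15 of 43 members (34.9%) passed the adjusted threshold at HF20, where 38.8% of all genes did, and 20 (46.5%) the unadjusted one, against 48.4%. The median of all genes then moved to 0.36, and the array medians of the normexp signal ran from -2.08 to -0.24 on HF20 and from -2.63 to -1.68 on HFC; their part was not tested. For HF75, 0 members and 0% of genes passed, with 6 of 43 members at an unadjusted p under 0.05, 1 of them higher in HF75, against 5.02%. The count at HF75 was 1 without Week 3 (2.69% of genes) and 9 without Week 6 (5.32%). At HF75 the difference was positive in 8 of 43 members with a median of -0.24, while the median of all genes was 0.00. The immediate early list was positive in 0 of 8 genes at HF75, with a median of -0.90, beside a Week 3 array low in these genes, and its part was not tested.

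In these weeks 5 of 6 HFC, 6 of 6 HF5, 3 of 6 HF20 and 3 of 6 HF75 arrays showed Mmp12 above background, or 5 of 6 HF5 and 4 of 6 HF20 arrays if those diets swap their Week 12 arrays. On HF5 its levels were -4.87, -2.04, -3.52, -3.28, -2.36 and -4.51 from Week 3 to Week 18. On HF20 they were -7.38, -3.75, -6.80, -6.27, -3.15 and -4.42, and on HF75 -5.72, -4.48, -6.76, -2.20, -5.07 and -6.18. The HF20 and HF75 arrays overlapped with those of HFC, which held both the lowest level (-7.61 at Week 3) and the highest (1.30 at Week 6).

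The mean difference from HFC in Mmp12 was -0.53 (SE 0.78, p = 0.50) at HF5, -2.39 (SE 0.78, p = 0.00525, limma adjusted p = 0.997) at HF20 and -2.17 (SE 0.78, p = 0.0103, adjusted p = 0.866) at HF75. It was lower than HFC at 4 of 6 time points for each dose. Once HF5 and HF20 swapped their Week 12 arrays, their values were -1.03 and -1.89. Without Week 6, the value at HF75 was -1.44 and that at HF5 was 0.032. With normexp, the values were 0.46 at HF20 and -0.26 at HF75, and when the slide was a random block they were -1.10 and -1.26.

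At HF75 several ADAMTS genes stood lower than on HFC. Adamts5 had a difference of -1.20 (SE 0.43, lower at 5 of 6 time points, p = 0.0110), Adamts12 of -1.12 (SE 0.43, p = 0.0174) and Adamts7, the other COMP-cleaving protease, of -0.84 (SE 0.39, p = 0.0423). Mmp19, a secreted MMP, had a difference of -1.42 (SE 0.56, p = 0.0191). The HF75 levels of Adamts5 were 0.92, 2.48, 2.86, 2.20, 1.64 and 0.49 from Week 3 to Week 18, against 3.18, 2.73, 2.78, 2.60, 2.96 and 3.53 on HFC, so only the HF75 array of Week 9 reached the HFC range. None of these passed (limma adjusted p = 0.866 for each). With normexp the values at HF75 were -1.34 for Adamts5, 0.32 for Adamts12, -0.033 for Adamts7 and -0.29 for Mmp19, which was at -0.80 without Week 3. Adamts7 was at -0.47 when the slide was a random block.

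Adamts20, a gene of melanoblast migration and palate closure, was the 1 member with an unadjusted p under 0.05 that was higher at HF75, by 2.26 (SE 1.06, p = 0.0439, limma adjusted p = 0.866). The probe exceeded background in 4 of 6 HF75 and 1 of 6 HFC samples, and in 2 of the 6 pairs, at Week 3 and Week 6, in neither, so those pairs carry no direction and the size rests on HFC levels at background. On HFC its levels were -7.59, -8.85, -7.66, -3.78, -5.88 and -7.05, and on HF75 -5.94, -7.46, -2.74, -3.47, -4.35 and -3.28. The ranges overlapped, and with normexp the difference was 1.06.

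Cell type markers shifted beside these values. The macrophage list was negative in 8 of 8 genes for each dose, with medians of -0.39, -0.68 and -0.74, and Itgax and Cd68 had differences of -2.10 and -1.31 at HF75. The mean level of this list overlapped between the diets. It ran from 0.41 to 2.11 on HFC (median 1.33) and from -0.78 to 2.11 on HF5 (1.38). On HF20 it ran from -0.62 to 2.44 (0.36) and on HF75 from -1.93 to 1.89 (0.44). The lowest HF5 and HF75 arrays, of Week 12 and Week 3, were high in muscle RNA. The fibroblast and progenitor list was negative in 7 of 8 genes at HF75, with a median of -0.43, and the muscle list was positive in 8 of 8 genes at each dose, with medians of 2.60, 1.79 and 3.25. Once HF5 and HF20 swapped their Week 12 arrays, the medians of the muscle list were 1.09 at HF5 and 3.31 at HF20, and 1 of 8 macrophage genes was positive at HF5. Without the arrays high in muscle RNA, the HF75 differences were -2.55 for Mmp12, -1.17 for Adamts5, -1.02 for Adamts12, -1.06 for Mmp19 and -0.49 for Adamts7. Over Week 3 to Week 18, as labelled, the lymphocyte list had means of -3.28 on HFC, -2.51 on HF5, -1.93 on HF20 and -3.33 on HF75. Those of the neutrophil list were -1.80, -1.47, -0.51 and -1.26 in that order, and those of the endothelial list lay between 2.56 and 2.98. The part of the other cell types in the members' values was not tested.

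Over the order HFC, HF5, HF20 and HF75, 0 of 43 members and 0% of genes passed in limma, and 5 of 43 members had an unadjusted p under 0.05, 1 of them upward, against 5.06% of genes. That count was 1 without Week 3 (3.11% of genes), 8 without Week 6 (5.37%) and 15 with normexp (33.0%). Mmp12 changed by -0.84 per step (SE 0.25, p = 0.00241, adjusted p = 0.893), Mmp19 by -0.51 (SE 0.18), Adamts5 by -0.36 (SE 0.14), Adamts12 by -0.36 (SE 0.14) and Adamts20 by 0.70 (SE 0.34). After the same swap at Week 12, the values were -0.74, -0.47, -0.36, -0.30 and 0.75. With normexp, Mmp12 was at 0.015 per step, Mmp19 at -0.052 and Adamts12 at 0.25. Mmp12 was at -0.52 when the slide was a random block, and Mmp19 at -0.33 without Week 3.

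For the 3 doses together against HFC, 0 of 43 members and 0% of genes passed, and 2 of 43 members had an unadjusted p under 0.05 against 4.51% of genes. These were Mmp12 (-1.70, SE 0.63) and Adamts5 (-0.75, SE 0.35), and the count was 6 without Week 6 (3.73% of genes) and 12 with normexp (23.4%). Mmp12 was at -0.086 with normexp, -1.09 without Week 6 and -0.67 when the slide was a random block, and Adamts5 was then at -0.37. Adamts17 followed with -0.75 (SE 0.37), which was 0.44 with normexp and -0.28 without Week 9. Against LFC, 0 members and 0% of genes passed, and 0 of 43 members had an unadjusted p under 0.05 against 3.45% of genes. In that comparison the smallest p values belonged to Mmp11 (0.62, SE 0.31), stromelysin-3 of stromal cells, Adamts4 (1.34, SE 0.72) and Adamts1 (0.80, SE 0.44). All 7 proteoglycan-cleaving ADAMTS genes were positive, with a median of 0.62. Without the arrays low in immediate early genes, the Adamts4 and Adamts1 values were 0.56 and 0.49 and the median was 0.40, and without Week 12 these were 0.62, 0.33 and 0.33. Adamts4 was at 0.73 without Week 3.

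The levels of the inhibitors overlapped between the diets. Over Week 3 to Week 18 Timp1 had means of 1.42 on LFC, 1.97 on HFC, 2.52 on HF5, 2.05 on HF20 and 1.13 on HF75, with SDs of 0.93 to 1.83 and n = 6 each. Timp2 had means of 5.98, 5.92, 6.42, 6.38 and 5.90 in that order, with SDs of 0.29 to 1.16. Timp3 was at 5.17, 5.82, 5.78, 5.84 and 5.59, with SDs of 0.39 to 1.38, and Timp4 at 3.06, 3.26, 3.26, 3.09 and 3.48, with SDs of 0.37 to 1.34. In each case the distance between neighbouring diets was smaller than the largest SD within a diet.

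Change per week over Week 3 to Week 18, across the 5 diets, was the last comparison. Its fit treated the arrays of a week as independent, although the slope varies only between 6 weeks. In limma 0 of 43 members passed, where 20 of 21087 genes (0.0948%) did, and 8 of 43 members had an unadjusted p under 0.05, 6 of them upward, against 15.5% of all genes. The count was 1 without Week 18 (7.43% of genes) and with the scan day as a random block (5.46%), and 10 without Week 12 (17.9%). The positive ones were Adamtsl3 (0.09 per week, SE 0.03, adjusted p = 0.157) and 5 genes of the chromosome 9 cluster: Mmp10 (0.13, SE 0.05), Mmp8 (0.19, SE 0.07), Mmp3 (0.20, SE 0.08), Mmp13 (0.22, SE 0.09) and Mmp27 (0.13, SE 0.06). Mmp10 was well above background on only 13 of all 39 arrays, so its slope rests mostly on background levels. Adamts17 and Adamtsl2 had negative values of -0.07 and -0.08 per week. With normexp, the values were 0.018 for Mmp10, 0.070 for Mmp8, 0.072 for Mmp27, 0.035 for Adamtsl3, -0.032 for Adamts17 and -0.021 for Adamtsl2. Without Week 3, Adamtsl3 was at 0.050 and Adamts17 at -0.039, and without Week 6, Mmp3 was at 0.12 and Adamtsl2 at -0.041.

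Mmp3, which cuts proteoglycans and activates other MMPs, shows how uneven these series were. Its levels from Week 3 to Week 18 were 2.84, -1.30, 5.01, 2.81, 4.25 and 1.61 on LFC. On HFC they were 3.27, -3.66, -1.15, 5.04, 5.52 and 5.08, and on HF5 2.87, -0.28, 5.12, 2.16, 5.02 and 4.52. The Week 6 array was the lowest of the 6 on each of these diets, while on HF20 Week 6 held the highest level (5.28).

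Mmp8, which neutrophils store in granules, was at 0.21 on LFC at Week 9, at 0.55 on HF5 at Week 15 and at 0.96 on HF75 at Week 15. It was not well above background on 10 of 39 arrays. Without Week 3 its slope was 0.33 with a limma adjusted p of 0.0234, and 2 of 43 members passed, where 13.6% of all genes did. The neutrophil list had 6 of 7 genes with a positive slope and a median of 0.10 per week.

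**Figure D5:**
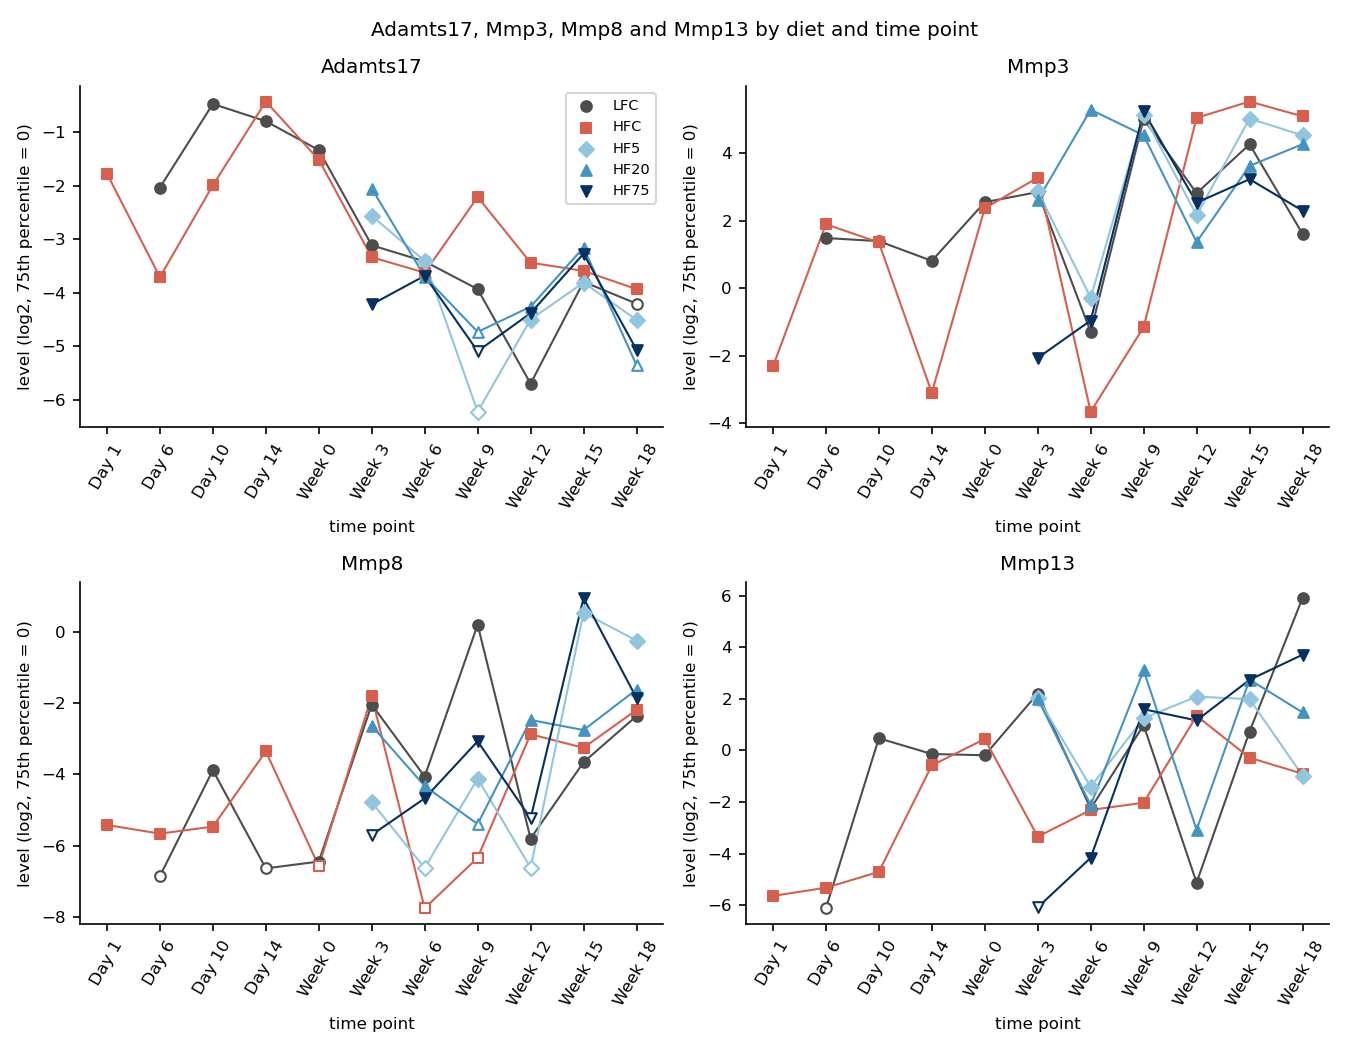
Level of members of the chromosome 9 cluster and of Adamts17 (log2, relative to the 75th percentile of the array) over the time points, with a line for each diet; open markers are arrays on which the probe was not well above background. The lines of Mmp3, Mmp8 and Mmp13 cross between diets, and those of Adamts17 are higher at the early than at most late time points.

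Pairs of a member with a marker, substrate, activator or inhibitor were correlated across arrays, with 11 pairs in the family and permutation tests of 100000 resamples adjusted by Benjamini-Hochberg. Mmp2 followed its activator Mmp14 (Pearson r = 0.71, Spearman rho = 0.75, n = 37, permutation p = 1e-05 for each, which is the smallest these resamples can give, adjusted p = 5.5e-05). It also followed Timp2 (r = 0.61, rho = 0.64, permutation adjusted p = 0.000165) and Col1a1, the collagen of fibroblasts (r = 0.66, rho = 0.64). Centred within time points, the 3 values of r were 0.81, 0.74 and 0.75. Without the 2 arrays farthest from the median they were 0.70, 0.58 and 0.54. Adamts2, which trims procollagen, followed Col1a1 with r = 0.63 and rho = 0.54 (n = 38), 0.76 within time points.

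Immune markers were paired with Mmp12 and Mmp9. Mmp12 and the macrophage marker Cd68 had r = 0.50 and rho = 0.49 (n = 39, permutation p = 0.00094 and adjusted p = 0.00129), 0.33 within time points and 0.30 within scan days, and 0.50 without the 2 farthest arrays. Mmp9, gelatinase B, and the neutrophil gene S100a8 had r = 0.58 and rho = 0.55, with r at 0.68 within time points and 0.40 with normexp. Timp1 and Mmp3 had r = 0.53 and rho = 0.64, and Timp1 and Lep, the leptin gene of adipocytes, had r = -0.51 and rho = -0.56. For Timp1 and Lep r was -0.39 within time points and -0.35 within scan days.

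Other pairs set Timp4 beside an adipocyte gene and 2 members beside Fos. Timp4 and Adipoq had r = 0.31 and rho = 0.19 (permutation adjusted p = 0.0586), and r was 0.11 without the 2 farthest arrays, 0.54 within time points and within scan days, and 0.40 with normexp (permutation adjusted p = 0.0121). Fos separated the arrays into clusters, so it was correlated only over the 33 arrays with high immediate early genes. There r was 0.43 and rho 0.50 with Timp1 (permutation adjusted p = 0.0154), with r at 0.45 within time points and 0.52 without the 2 farthest arrays. With Adamts1 they were 0.27 and 0.36 (permutation adjusted p = 0.124 for r and 0.0419 for rho), with r at 0.18 within time points, 0.31 without the 2 farthest arrays and 0.57 with normexp. Arrays of a time point share a scan day in most cases, and all pairs share the scaling of each array. The permutations treated the arrays as exchangeable across time points and scan days, so their p-values leave these groupings out. The centred values have no p-value.

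Other protease systems were read from separate gene lists. In each diet comparison, the adjusted test in limma called 0 genes of these lists, where it called 0% of all genes. The list of lysosomal cathepsins and their secreted inhibitor cystatin C was positive in 8 of 8 genes for HFC against LFC (median 0.31) and in 0 of 8 for each KAL-1 dose against HFC (medians -0.26, -0.45 and -0.44). Of all genes, 45.3% were positive for HFC against LFC over the 10 shared time points and 44.8% over Week 3 to Week 18. At HF5, HF20 and HF75 the shares were 50.2%, 55.5% and 50.2%. The HFC arrays enter both kinds of comparison with opposite sign. The macrophage list took the same directions, and its part was not tested. Cathepsin L (Ctsl) had differences of 0.91 (SE 0.30) for HFC against LFC over Week 3 to Week 18, -0.83 at HF20 and -0.73 at HF75.

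In the plasminogen system, whose product plasmin activates pro-MMPs, 6 of 7 tested genes were positive for HFC against LFC over Week 3 to Week 18 (median 1.01). Plau, urokinase, had a difference of 1.28 (SE 0.45). At HF5, HF20 and HF75 against HFC, 4, 4 and 1 of the 7 were positive, with medians of 0.16, 0.060 and -0.71. These comparisons share the HFC arrays with the one against LFC. In these weeks the immediate early list had means of 3.65 on LFC, 4.87 on HFC, 4.83 on HF5, 5.02 on HF20 and 3.81 on HF75. Its part was not tested. Among 13 matrix substrates, 10 were positive for HFC against LFC in these weeks (median 0.53). Against HFC, 10 were positive at HF5 (median 0.25), 7 at HF20 (0.054) and 2 at HF75 (-0.46). Thbs2, a thrombospondin, was at 1.44 for HFC against LFC and at -1.32 at HF75. The 7 ADAM sheddases had 5 positive values for HFC against LFC (median 0.45), and 3, 4 and 0 for the doses in that order (medians -0.065, 0.019 and -0.41). The activators and other inhibitors had 5 of 7 positive (median 0.52), and then 3, 3 and 1 of 7 (medians -0.19, -0.069 and -0.58).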

How the data were processed

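Per the file headers, the 39 array files hold spot intensity values from Agilent Feature Extraction 10.5.1.1, background-subtracted and corrected for spatial trends, with flags of 0 or 1 for each spot; the submitters' processing notes name version 9.1. The mean signal and local background intensity, deposited in the same files, served for normexp. The deposited series table holds log2 ratios to the LFC array of the time point, made by the authors in GeneSpring GX, and was used as an alternative and to check labels.

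Outlier spots were left out, spots of a probe averaged, and the log2 75th percentile of each array subtracted. Genes had to be well above background on at least 10 of 20 arrays (LFC and HFC) or 6 of 30 (Week 3 to Week 18). R 4.3.3 and limma 3.58.1 gave the differences; the time point was a block except for late against early (diet as covariate) and the change per week. P-values were adjusted by Benjamini-Hochberg over all genes tested, with a threshold of 0.05, two-sided. The scripts were tested on simulated data. Samples were grouped by the diet and time point in their labels. The HFC array of Day 1 has no LFC partner and entered levels only; no value was imputed, and a missing spot is left out of its gene's fit.

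Members named in each comparison were those past the threshold, or else the 3 with the smallest p, with 17 always named; others are given in counts or were named for an unadjusted p under 0.05 or after their values were seen (Adamts14, Adamts8, Mmp27). The members and lists were chosen with earlier results of these data known. Alternatives were normexp (offset 50), quantile scaling, other filters, all probes, outlier spots kept, a robust trended prior, no block, scan day or slide as a block, each time point left out, and, chosen after seeing the data, leaving out arrays low in immediate early genes, with muscle RNA or with most outlier spots, and exchanging the Week 12 arrays of HF5 and HF20. The number of arrays limits the precision.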

Additional observations from a re-analysis of the deposited data

Results flagged for a closer look

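Within each diet of 4 to 10 arrays, the farthest array of each always-named or printed member was examined by Dixon's ratio at its 95% level, which chance passes in about 5% of groups, and 5 groups (4.76%) passed. Adamts1 on the HF5 array of Week 9 was at 3.96, with the nearest array of the diet at 5.56. Timp2 on the HF20 array of Week 12 was at 4.15 (nearest 6.57), and Adamts15 on the same array was at -1.27 (nearest 0.87). That array is one of the pair whose Week 12 labels and series table columns go against each other. Adamtsl3 was at -1.54 on the HF5 array of Week 18 (nearest -2.54) and at -6.13 on the HF75 array of Week 3 (nearest -2.98), which was low in immediate early genes and high in muscle RNA.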

How the results depend on the processing

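Across the comparisons, the number of members past the adjusted threshold kept its value under the alternatives except in 3 comparisons. For late against early it was 1, and 0 with normexp, with no filter and with the scan day as a random block. It was 0 to 2 when a time point was left out. With a filter on every array it was also 0, but Adamts17, well above background on 34 of 39 arrays, was not tested there. For HF20 against HFC it was 0, and 15 of 43 with normexp, where 38.8% of all genes passed and Adamts18 passed with a difference of 1.64 (limma adjusted p = 0.0130). For the change per week it was 0, and 0 to 2 when a week was left out, with 2 without Week 3, where 13.6% of all genes passed. Timp2 passed for late against early without Week 6 (1.12, adjusted p = 0.0415).

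At an unadjusted p under 0.05, leaving out 1 time point gave 1 to 5 members for HFC minus LFC at all 10 shared time points, with 1 without Week 15 and 5 without Week 6, and 2 to 6 over Week 3 to Week 18, with 6 without Week 6. It gave 0 to 4 for late minus early, with 0 without Day 10, Week 9 or Week 12, and 4 to 9 for late against early, with 9 without Week 6. At HF5 it gave 0 to 2, with 2 without Week 3, at HF20 1 to 4, with 4 without Week 6, Week 12 or Week 18, and for the doses together against LFC 0 to 2, with 2 without Week 9 or Week 15.

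Directions turned with normexp for Adamts12 in HFC against LFC (-0.27), Mmp12 (0.46) and Mmp19 (0.31) at HF20, Adamts12 at HF75 (0.32), Adamts17 in the 3 doses against HFC (0.44), and Mmp12 (0.015) and Adamts12 (0.25) over the dose order. Mmp12 at HF5 turned when the slide was a random block (0.35) and ran from -1.19 to 0.032 when a week was left out, with 0.032 without Week 6. The cause was not tested. By Pearson's r, 9 of 11 correlations passed the adjusted threshold, 10 with quantile scaling and 11 with normexp; by Spearman's rho it was 10 under each. The slide as a random block could not be fitted for the comparisons of LFC and HFC alone, where 1 slide held 2 arrays. Dim probes (Mmp10, Mmp12, Adamts19, Adamts20) have only a bound on arrays without signal over background.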
